A study of Mus musculus with 15 samples.

Results

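The genes described here build the tight junction and set the apical and basal sides of an epithelial cell, together with a few genes of the desmosome and the epithelial cytoskeleton. The set held 42 listed genes and every other gene whose single symbol was Cldn followed by a number, which added 8 claudins. In all it held 50 of the 19938 genes measured, 23 of them claudins. The cells were kidney cells of CD-1 pups that carried the Tg(Crym-EGFP)82Gsat reporter, in which Crym regulatory sequence on an artificial chromosome drives green fluorescent protein. All pups were moved to CD-1 foster mothers at embryonic day 18.5, and GFP-labelled cells were sorted after trypsin digestion on each day from birth (postnatal day 0, P0) to P4. Each day had 3 samples, each a pool of approximately 4 kidneys of unknown sex and each measured on 1 array. By their labels, the 12 pools of P0, P1, P2 and P3 are cap mesenchyme and the 3 of P4 are renal vesicle, whereas the description of the whole series names cap mesenchyme for all 5 days. No source used here gives the sort gate, so the age of the pups, the labelled structure and the sort cannot be told apart at P4. All groups carried the reporter, and whether pools of the same day had different litters is not stated, so each p-value reflects a spread among samples that may be technical.

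Cap mesenchyme cells are the nephron progenitors. They are loosely joined and have no apical surface, and they become a polarised epithelium when they form the renal vesicle. In the tight junction, claudins seal or select the path between cells, MARVEL proteins such as occludin and tricellulin organise the strands and the corners, and ZO scaffolds tie the strands to actin. The Par and Crumbs complexes mark the apical side of the cell and the Scribble complex the basolateral side. Claudins also mark segments of the mature nephron, where each segment has its own combination.

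The data were log2 values, with 1 probe set standing for each gene. A gene was tested if it lay above the median of all values (6.86) in at least 3 arrays. This held for 11885 genes, among them 36 of the 50 members, and each of the 36 would also have passed on the 12 cap mesenchyme arrays alone. The other 14 members were Cldn2, Cldn8, Cldn10, Cldn13, Cldn14, Cldn16, Cldn17, Cldn18, Cldn23, Cldn24, Ocln, Marveld3, Cgn and Krt19, with day means between 4.40 and 6.83. At P4, all 7 cap mesenchyme markers were lower than in the earlier pools, and 7 of 9 renal vesicle markers were higher. The mean value over the cap mesenchyme markers was 10.39 at P0, 9.17 at P3 and 7.72 at P4, and that over the renal vesicle markers was 7.85, 9.46 and 9.68. The first replicate of each day stood apart, with an interquartile range of 2.14 to 2.27 against 2.52 to 2.77 in the other arrays. In such bulk samples, a change in the share of cells that express a gene and a change in the RNA of that gene per cell cannot be told apart.

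**Figure D1:**
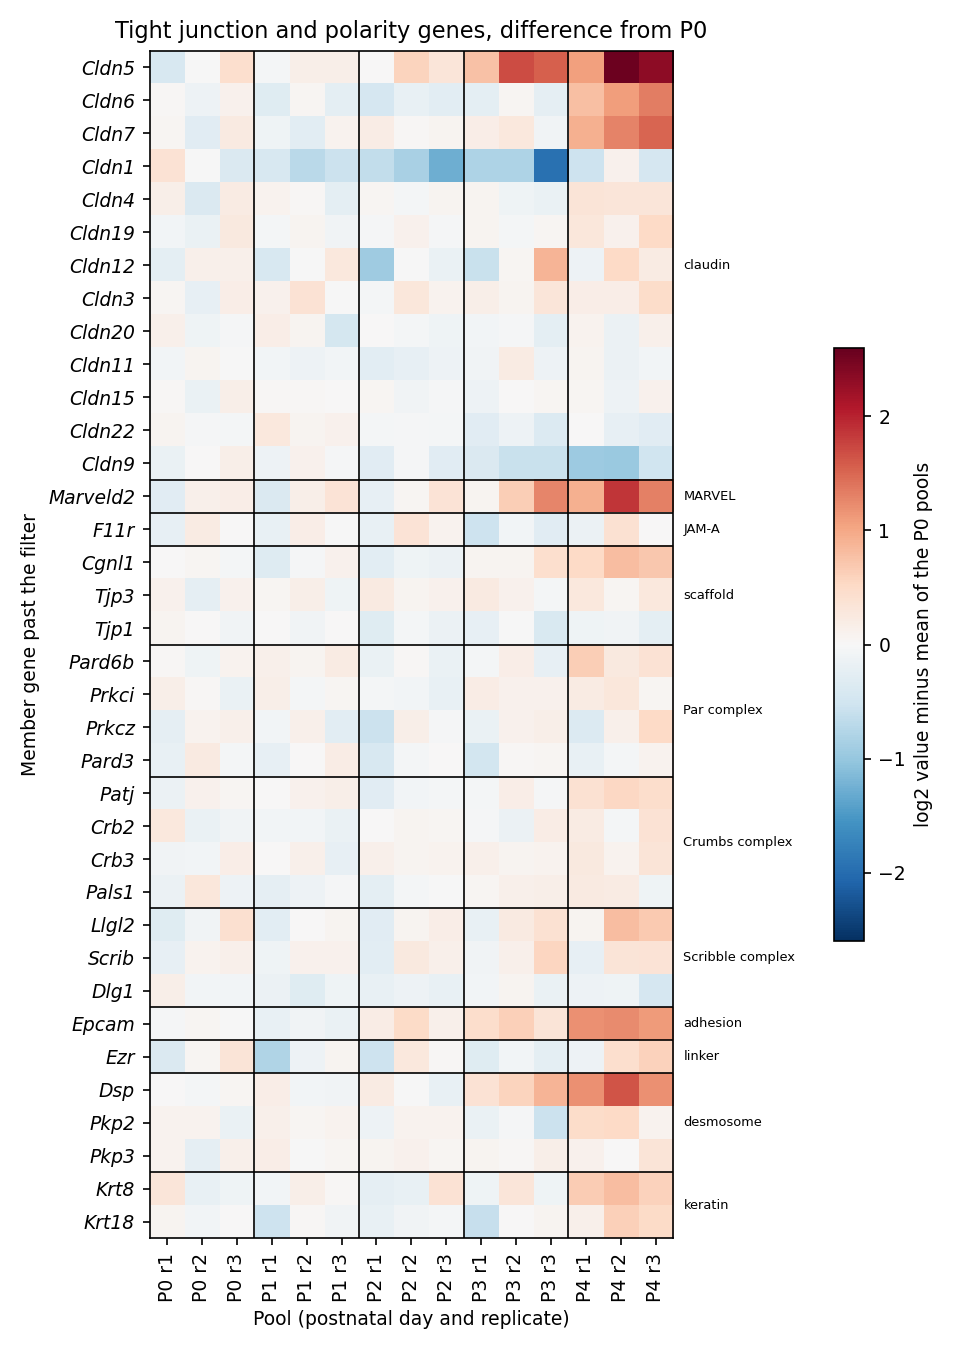
Each row is 1 of the 36 members past the filter, grouped by role, and each column is 1 of the 15 pools. Colour gives the log2 value minus the mean of that gene at P0. Cldn5, Dsp and Epcam are already red, some of them palely, in all P3 columns, and Marveld2 only in those of replicates 2 and 3. Cldn6 and Cldn7 turn clearly red at P4, and Cldn9 turns blue over P3 and P4.

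The first comparison asked which members differed between the P4 pools and the mean of P0 to P3. At P4, 10 of the 36 tested members were higher, against 3.41% of all genes, and 1 was lower, against 2.32%. The genes that rose were Cldn5, Cldn6, Cldn7, Marveld2, Cgnl1, Patj, Pard6b, Epcam, Dsp and Krt8, and the one that fell was Cldn9. They included claudins, a MARVEL protein, a scaffold, 1 member each of the Par and Crumbs complexes, and adhesion, desmosome and keratin genes. The median log2 difference of the 36 members was 0.24, against 0.00 for all genes, and 32 of the 36 lay above 0, against 50.9% of all genes. With no filter on low values, 11 of all 50 members were higher and 1 lower, against 2.23% and 1.25% of 19938 genes, and the added gene was Ocln. In 12 of the 50 members, Ocln and Marveld3 below the filter among them, all 3 P4 samples lay above all 12 cap mesenchyme samples. The share of all genes for which this held was not counted, so the count describes the members alone.

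**Figure D2:**
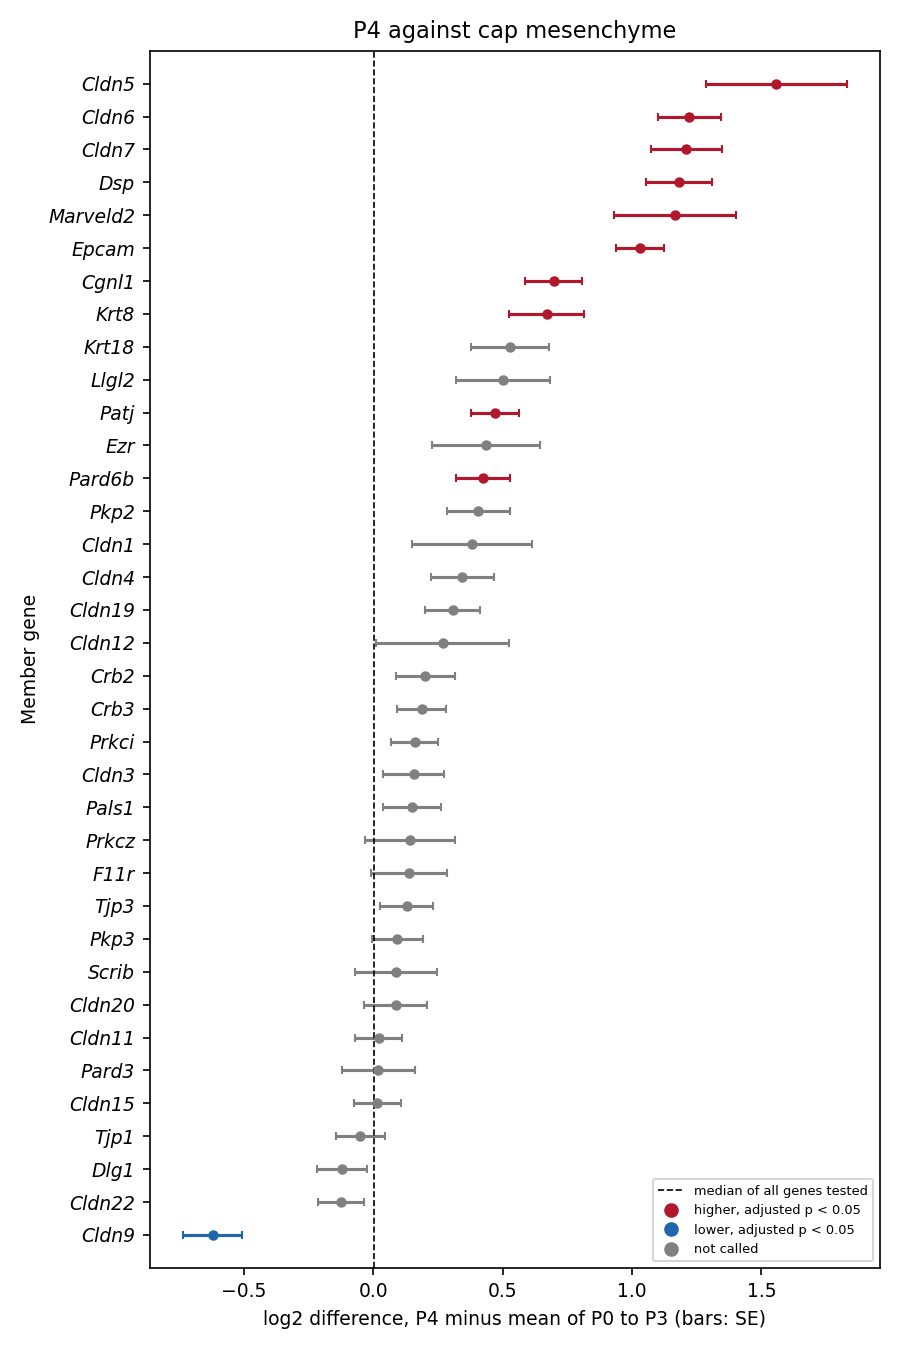
Points give the log2 difference between P4 and the mean of P0 to P3 for the 36 tested members, with the SE as bars, and the dashed line is the median of all genes tested. The largest difference is that of Cldn5 (1.56, also the widest SE among the 10 that rose), and Cldn9 (-0.62) is the only member called lower.

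Of these genes Cldn6, Cldn7, Epcam and Dsp also rose in the single step from P3 to P4, described further on. The sequences before these 4 are shown because of that shared call, although their courses before P4 differed. They are the 250 bases upstream of the outermost start in the RefSeq annotation of GRCm38.p6, all on the plus strand, at chr17:23679115-23679364 for Cldn6, chr11:69964529-69964778 for Cldn7, chr17:87635729-87635978 for Epcam and chr13:38151044-38151293 for Dsp. Cldn7 alone of the 4 has a second window in the table, before an inner start, at chr11:69965171-69965420 on the same strand. Capitals mark the E-box letters CACCTG, which Zeb and Snail factors can bind, the AP-2 letters GCCNNNGGC and the grainyhead letters CCGGTT, searched on both strands.
Cldn6: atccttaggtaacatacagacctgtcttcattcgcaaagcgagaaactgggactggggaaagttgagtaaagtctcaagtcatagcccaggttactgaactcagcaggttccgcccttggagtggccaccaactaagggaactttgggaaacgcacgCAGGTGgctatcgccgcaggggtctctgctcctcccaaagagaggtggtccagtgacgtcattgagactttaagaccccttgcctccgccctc
Cldn7: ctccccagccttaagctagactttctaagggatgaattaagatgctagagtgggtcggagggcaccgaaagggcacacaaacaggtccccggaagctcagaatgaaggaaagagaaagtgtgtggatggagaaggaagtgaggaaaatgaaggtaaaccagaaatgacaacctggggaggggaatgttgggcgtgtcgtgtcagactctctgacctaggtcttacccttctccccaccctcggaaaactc
Cldn7, inner start: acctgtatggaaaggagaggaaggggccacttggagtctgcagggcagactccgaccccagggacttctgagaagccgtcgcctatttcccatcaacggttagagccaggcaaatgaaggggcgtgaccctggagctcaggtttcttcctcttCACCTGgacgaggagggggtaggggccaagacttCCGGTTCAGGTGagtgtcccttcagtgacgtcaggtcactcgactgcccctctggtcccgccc
Epcam: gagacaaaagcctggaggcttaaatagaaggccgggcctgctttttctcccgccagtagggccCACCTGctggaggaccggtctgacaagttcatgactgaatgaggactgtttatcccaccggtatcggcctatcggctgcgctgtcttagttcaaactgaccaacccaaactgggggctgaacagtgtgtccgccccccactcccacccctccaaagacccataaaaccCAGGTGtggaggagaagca
Dsp: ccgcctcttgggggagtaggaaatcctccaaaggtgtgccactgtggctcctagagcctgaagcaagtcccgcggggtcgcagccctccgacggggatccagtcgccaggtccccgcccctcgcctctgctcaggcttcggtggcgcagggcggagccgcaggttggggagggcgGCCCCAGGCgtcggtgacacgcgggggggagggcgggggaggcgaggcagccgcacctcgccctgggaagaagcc
The window of Cldn6 held 1 E-box match and that of Epcam 2, that of Dsp held an AP-2 match, and the outermost one of Cldn7 held none of the 3, whereas its second window held 2 E-box matches and 1 grainyhead match. The table had windows for 39 of the 50 members, and 15 of the 39 held the E-box letters in at least 1 window, against 19.4% of all 27025 genes and 19.1% of coding genes. The AP-2 letters were in 12 members (15.4% of all genes and 18.3% of coding genes) and the grainyhead letters in 5 (6.40% and 7.50%). The 39 members had 59 windows, more for each gene than the 32851 windows of the 27025 genes, and each added window is a further chance of a match. Other letters were searched too. The HNF1 letters GTTAAT were in 7 of the 39 members (6.86% of coding genes) and the TEAD letters GGAATG in 6 (13.5%). The Lef/Tcf letters CTTTGA were in 3 (14.7%) and the GC box letters GGGCGG in 27 (45.8%). The windows of the members were richer in G and C, with a median of 58.0% against 55.6% for coding genes. The 3 kinds of letters marked in capitals are themselves rich in G and C. A match is no evidence that a factor binds there.

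Among the 13 claudins that passed the filter, 3 rose, against 3.41% of all genes, 1 fell, against 2.32%, and 9 did not pass the test. Cldn6 is a claudin of embryonic epithelia that is largely switched off in mature tissue. In replicates 1, 2 and 3, Cldn6 gave 7.96, 7.81 and 8.04 at P0, 7.62, 7.98 and 7.69 at P1, 7.49, 7.74 and 7.66 at P2, 7.68, 7.99 and 7.70 at P3 and 8.72, 9.02 and 9.27 at P4. The 12 cap mesenchyme values stayed within 7.49 to 8.04, and all 3 P4 values were above them. The gene rose 2.33-fold (log2 difference 1.22, SE 0.12, adjusted p = 1.83e-05). Cldn7, a claudin of the distal nephron and collecting duct whose protein binds EpCAM, also stayed level up to P3. Cldn7 gave 6.83, 6.48 and 7.00 at P0, 6.66, 6.49 and 6.87 at P1, 6.95, 6.80 and 6.85 at P2, 6.95, 7.05 and 6.68 at P3 and 7.69, 8.07 and 8.28 at P4. Its P4 samples again lay above every earlier one, and the gene rose 2.31-fold (log2 difference 1.21, SE 0.14, adjusted p = 4.82e-05).

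Cldn5 is best known as the main claudin of blood vessel endothelium and is also made by podocytes. It gave 7.06, 7.47 and 7.92 at P0, 7.44, 7.63 and 7.64 at P1, 7.50, 8.06 and 7.80 at P2, 8.24, 9.17 and 9.05 at P3 and 8.56, 10.04 and 9.82 at P4. The P3 and P4 samples were all above those of P0, and the 2 later replicates were higher than the first on both days. Cldn5 rose 2.94-fold at P4 (log2 difference 1.56, SE 0.27, adjusted p = 0.00229). The 7 endothelial markers Pecam1, Cdh5, Tek, Kdr, Flt1, Emcn and Tie1 stayed below the filter in the same pools. Their mean was 6.03 at P0 and 6.10 at P4, and without the filter Tek alone among them differed (log2 difference 0.40, adjusted p = 0.0143). Of 3 podocyte markers measured 1 passed the filter, Podxl, and it rose (log2 difference 0.61 at P4). The part of either cell type in the Cldn5 rise was not tested.

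**Figure D3:**
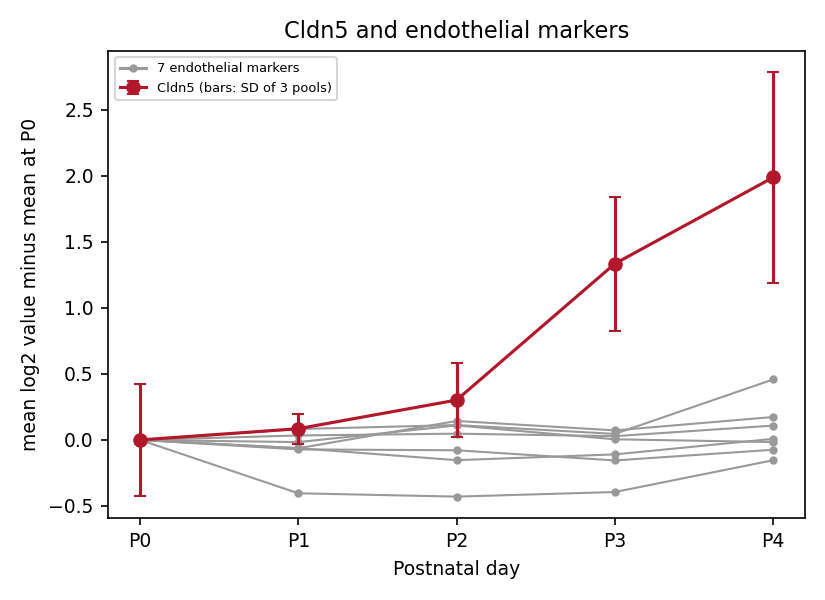
Lines give the mean log2 value of each day minus that of P0 for Cldn5 (red, bars are the SD of 3 pools) and for 7 endothelial markers (grey). Cldn5 climbs by 1.33 at P3 and 1.99 at P4, and the highest grey point is that of Tek at P4.

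Cldn9 lies next to Cldn6 on chromosome 17, with no protein-coding gene between them in the GRCm38.p6 annotation, and moved the other way. It gave 7.89, 8.07 and 8.21 at P0, 7.93, 8.18 and 8.03 at P1, 7.75, 8.02 and 7.75 at P2, 7.68, 7.48 and 7.47 at P3 and 7.11, 7.10 and 7.54 at P4. All P3 and P4 samples lay below all P0 samples. Cldn9 fell at P4, to a level 1.54-fold lower (log2 difference -0.62, SE 0.11, adjusted p = 0.00355).

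Cldn1, a claudin of the epidermal barrier and of the parietal cells of the glomerulus, had a trough. It gave 8.00, 7.61 and 7.24 at P0, 7.20, 6.91 and 7.07 at P1, 6.98, 6.77 and 6.35 at P2, 6.82, 6.81 and 5.68 at P3 and 7.08, 7.74 and 7.19 at P4. The samples of P1 to P3 were all below those of P0, and at P4 the values overlapped those of P0 again. Its P4 difference was 0.38 (SE 0.23) and did not pass (adjusted p = 0.551).

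The other 8 claudins past the filter did not pass the test between P4 and the cap mesenchyme. Cldn4, a claudin of the collecting duct, lay at 6.58 to 7.18 with a median of 7.00 in the cap mesenchyme pools and 7.30, 7.27 and 7.27 at P4, and Cldn3, which lies next to it on chromosome 5, at 6.43 to 7.02 with a median of 6.75 in the cap mesenchyme pools and 6.81, 6.82 and 7.11 at P4. The 3 P4 values of Cldn4 were above all earlier ones and those of Cldn3 were not. Cldn19, which forms a cation path with Cldn16 in the thick ascending limb, lay at 6.88 to 7.31 with a median of 7.03 in the cap mesenchyme pools and 7.36, 7.18 and 7.57 at P4. Cldn12 lay at 7.14 to 8.94 with a median of 8.05 in the cap mesenchyme pools and 7.93, 8.57 and 8.27 at P4. The values of Cldn12 spread widely among the pools of a day, from 7.49 to 8.94 at P3.

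Cldn11, known from myelin and the testis, lay at 7.37 to 7.86 with a median of 7.56 in the cap mesenchyme pools and 7.71, 7.49 and 7.57 at P4. Cldn15, a claudin of the gut that forms cation pores, lay at 6.65 to 6.98 with a median of 6.84 in the cap mesenchyme pools and 6.88, 6.68 and 6.94 at P4. In both genes the P4 values lay within the range of the earlier ones. Cldn20 lay at 6.39 to 7.01 with a median of 6.80 in the cap mesenchyme pools and 6.94, 6.69 and 6.98 at P4. Cldn22 lay at 6.81 to 7.45 with a median of 7.14 in the cap mesenchyme pools and 7.19, 6.97 and 6.87 at P4. The log2 differences of these 8 genes at P4 ran from -0.12 in Cldn22 to 0.34 in Cldn4, with adjusted p from 0.135 upward.

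Among the claudins of mature nephron segments, Cldn4, Cldn7 and Cldn19 passed the filter, with the values above, and Cldn2, Cldn8, Cldn10 and Cldn16 did not. Cldn2, the cation pore of the proximal tubule, ran from 5.68 to 6.48 over the 15 pools. Cldn10 ran from 5.93 to 6.79. Cldn16 ran from 5.36 to 6.49, and its 5 highest values were those of the first replicates. Cldn8 of the distal nephron and collecting duct is named after its values were seen. It lay between 4.82 and 5.88 before P4 and gave 5.99, 5.89 and 5.67 at P4, and without the filter it did not pass (adjusted p = 0.0524).

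Of the 3 MARVEL genes, Marveld2 passed the filter and rose. It encodes tricellulin, the protein of the corners where 3 cells meet. Marveld2 gave 6.56, 6.97 and 7.02 at P0, 6.48, 6.99 and 7.21 at P1, 6.63, 6.90 and 7.20 at P2, 6.93, 7.48 and 8.12 at P3 and 7.76, 8.70 and 8.16 at P4. The pools of P0 to P2 stayed at or below 7.21, and P3 replicate 3 lay within the range of the P4 pools. The rise was 2.24-fold (log2 difference 1.17, SE 0.24, adjusted p = 0.00697), and without P4 replicate 2 it did not pass (log2 difference 0.92, adjusted p = 0.0845). Ocln encodes occludin and lies beside Marveld2 on chromosome 13, with no protein-coding gene between them. Ocln lay at 5.68 to 6.26 with a median of 6.04 in the cap mesenchyme pools and 6.76, 6.95 and 6.55 at P4, so that 1 array exceeded the filter level. Without the filter it rose 1.66-fold (log2 difference 0.73, SE 0.11, adjusted p = 0.00121). Marveld3 lay at 5.72 to 6.08 with a median of 5.97 in the cap mesenchyme pools and 6.10, 6.22 and 6.14 at P4, above all earlier samples but without passing that fit (adjusted p = 0.313).

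Among the scaffolds, Cgnl1 rose and Tjp1 and Tjp3 did not pass. Cgnl1 encodes paracingulin, which links junctions to actin. It gave 7.91, 7.95 and 7.86 at P0, 7.57, 7.87 and 8.01 at P1, 7.64, 7.79 and 7.76 at P2, 7.98, 7.97 and 8.35 at P3 and 8.43, 8.71 and 8.62 at P4. The P4 pools were the highest, and the rise was 1.62-fold (log2 difference 0.70, SE 0.11, adjusted p = 0.00107). Tjp1, which encodes ZO-1, lay at 9.75 to 10.24 with a median of 10.08 in the cap mesenchyme pools and 10.05, 10.06 and 9.90 at P4. Its log2 difference was -0.05 (SE 0.10). Tjp3 lay at 6.96 to 7.42 with a median of 7.30 in the cap mesenchyme pools and 7.46, 7.25 and 7.46 at P4. Cgn, which encodes cingulin, stayed below the filter with 6.61, 7.01 and 6.86 at P4 and did not pass without it (adjusted p = 0.0955). F11r, the junction adhesion molecule JAM-A, differed by 0.14 (SE 0.15).

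Of the 11 genes of the Par, Crumbs and Scribble complexes, 2 rose, against 3.41% of all genes, and 9 did not pass. Patj, a scaffold that joins Crumbs and Pals1 to the tight junction, gave 7.36, 7.61 and 7.55 at P0, 7.52, 7.62 and 7.66 at P1, 7.21, 7.44 and 7.45 at P2, 7.45, 7.67 and 7.48 at P3 and 7.91, 8.05 and 7.96 at P4. Its P4 values were above all others, and it rose 1.39-fold (log2 difference 0.47, SE 0.09, adjusted p = 0.00515). Pard6b, the Par6 subunit that carries Cdc42 signals to the kinase, gave 7.46, 7.32 and 7.52 at P0, 7.56, 7.50 and 7.64 at P1, 7.26, 7.46 and 7.26 at P2, 7.38, 7.60 and 7.22 at P3 and 8.07, 7.68 and 7.82 at P4. It rose 1.34-fold (log2 difference 0.42, SE 0.10, adjusted p = 0.026), but without P4 replicate 1 (adjusted p = 0.184) or P4 replicate 3 (adjusted p = 0.0888) it did not pass, nor did it with replicates 2 and 3 alone (adjusted p = 0.253).

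The core kinase and scaffold genes of polarity did not pass. Prkci, the atypical protein kinase C of the Par complex, lay at 9.90 to 10.28 with a median of 10.13 in the cap mesenchyme pools and 10.30, 10.38 and 10.13 at P4, and its log2 difference was 0.16 (SE 0.09). Pard3 differed by 0.02 (SE 0.14) and Dlg1 of the Scribble complex by -0.12 (SE 0.10). Pals1, which the array's table lists as Mpp5, differed by 0.15 (SE 0.11). A change within the errors of these 4 genes was not detectable. Llgl2 of the Scribble complex lay at 6.41 to 7.13 with a median of 6.76 in the cap mesenchyme pools and 6.80, 7.53 and 7.39 at P4, and its difference of 0.50 (SE 0.18) did not pass. Scrib, Prkcz, Crb2 and Crb3 had differences between 0.09 and 0.20.

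Epcam encodes an epithelial adhesion protein that stabilises Cldn7. It gave 6.81, 6.90 and 6.82 at P0, 6.65, 6.75 and 6.66 at P1, 7.03, 7.34 and 6.97 at P2, 7.30, 7.45 and 7.18 at P3 and 8.03, 8.07 and 7.96 at P4. From P2 on every value lay above every P0 value, and the pools of a day differed little. Epcam rose 2.04-fold at P4 with the smallest adjusted p among the members (log2 difference 1.03, SE 0.09, adjusted p = 6.87e-06). Dsp encodes desmoplakin, which ties desmosomes to keratin. Dsp gave 6.88, 6.81 and 6.93 at P0, 7.04, 6.80 and 6.79 at P1, 7.08, 6.87 and 6.68 at P2, 7.26, 7.45 and 7.76 at P3 and 8.05, 8.51 and 8.06 at P4. It was flat up to P2, above P0 in all P3 pools and higher still at P4, and it rose 2.27-fold (log2 difference 1.18, SE 0.13, adjusted p = 3.36e-05). Of the other desmosome genes, Pkp2 lay at 6.65 to 7.35 with a median of 7.27 in the cap mesenchyme pools and 7.68, 7.73 and 7.30 at P4 and Pkp3 at 6.80 to 7.21 with a median of 7.10 in the cap mesenchyme pools and 7.14, 7.05 and 7.36 at P4, and neither passed.

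Krt8 and Krt18 encode the keratin pair of simple epithelia and are neighbours on chromosome 15. Krt8 gave 7.69, 7.18 and 7.25 at P0, 7.31, 7.52 and 7.41 at P1, 7.14, 7.17 and 7.74 at P2, 7.26, 7.69 and 7.27 at P3 and 8.02, 8.17 and 7.97 at P4. Its P4 pools were above all earlier ones and it rose 1.59-fold (log2 difference 0.67, SE 0.14, adjusted p = 0.011), although without P4 replicate 2 it did not pass (adjusted p = 0.0881). Krt18 lay at 6.44 to 7.12 with a median of 6.99 in the cap mesenchyme pools and 7.17, 7.65 and 7.53 at P4 and did not pass (log2 difference 0.53, SE 0.15, adjusted p = 0.0568). Krt19, of the ureteric bud and collecting duct, lay at 5.53 to 6.14 with a median of 5.81 in the cap mesenchyme pools and 5.74, 5.75 and 6.05 at P4. Ezr, which encodes the ezrin that links the apical membrane to actin, lay at 8.26 to 9.38 with a median of 8.95 in the cap mesenchyme pools and 8.90, 9.47 and 9.63 at P4 and did not pass (adjusted p = 0.37).

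**Figure D4:**
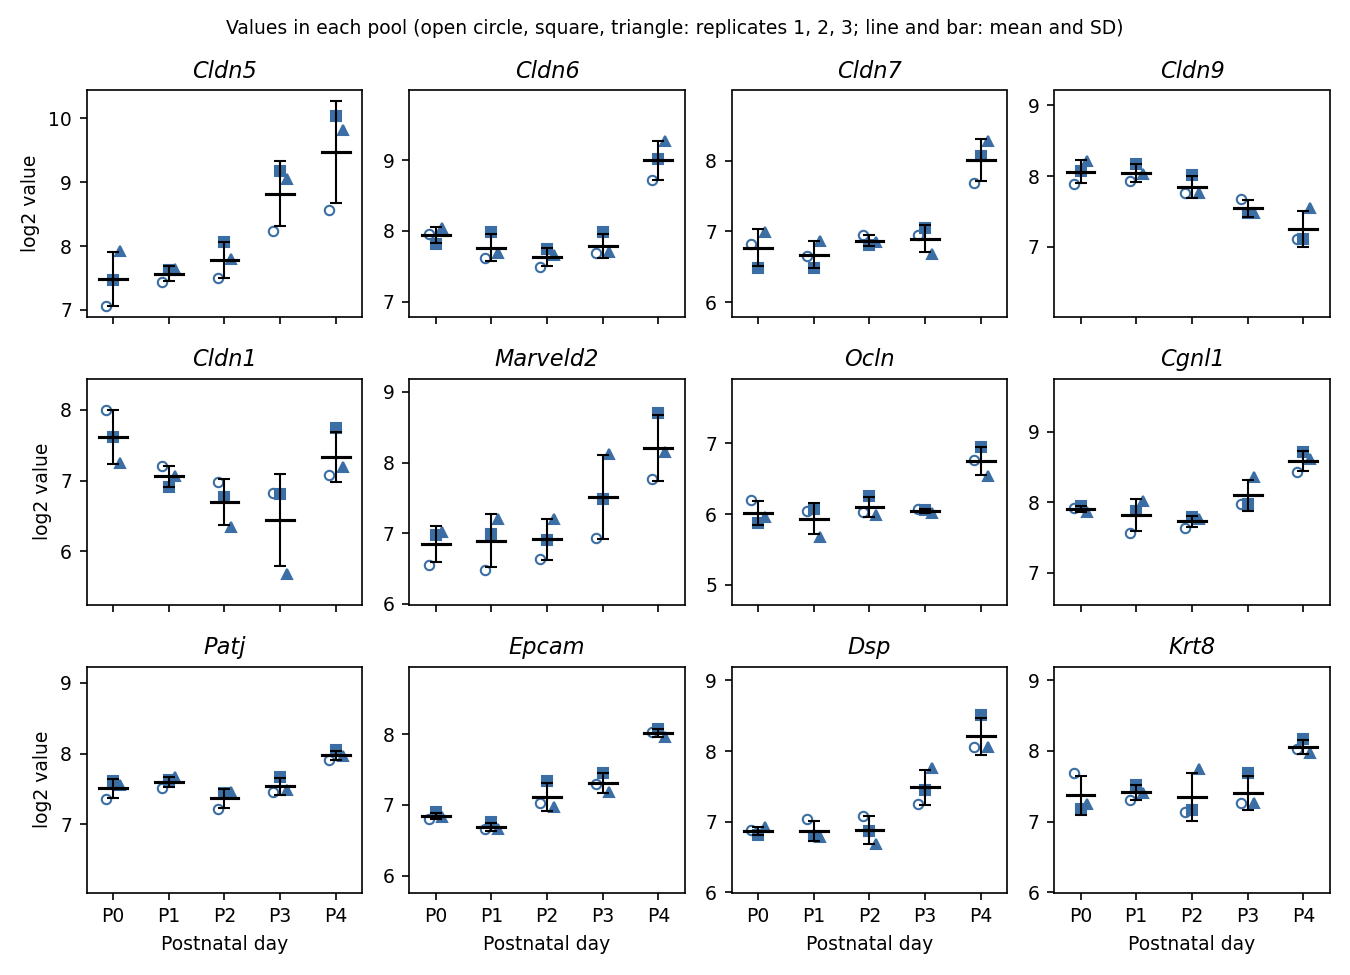
Each panel gives the log2 value of 1 gene in every pool by postnatal day, with open circles, squares and triangles for replicates 1, 2 and 3 and with the mean and SD as lines and bars. Cldn6, Cldn7, Ocln, Patj and Krt8 are level up to P3 and higher at P4. Cldn5 and Dsp leave the P0 level at P3, and Marveld2 does so there in replicates 2 and 3 only. Epcam climbs from P2, Cldn9 declines and Cldn1 dips.

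The next comparison asked at which step along the days the members moved. In the F test of any difference among the 5 days, 9 of the 36 members passed, against 5.37% of all genes. With 1 array left out, Patj did not pass this test in 10 of the 15 fits, Marveld2 in 8 and Cgnl1 in 1. Between P0 and P1, 0 of 36 members passed in limma, against 0.0% of all genes, and 0 had an unadjusted p under 0.05. Between P1 and P2 and between P2 and P3, 0 members passed as well, where 0.0589% and 0.0757% of all genes rose and 0.0252% and 0.0673% fell, and 1 and 3 members had an unadjusted p under 0.05. Between P3 and P4, 4 members rose, against 1.04% of all genes, and 0 fell, against 0.446%. These were Cldn6 (2.31-fold, adjusted p = 0.00102), Cldn7 (2.17-fold, adjusted p = 0.00337), Epcam (1.63-fold, adjusted p = 0.00505) and Dsp (1.65-fold, adjusted p = 0.0384). The Dsp step did not pass in 9 of the 15 fits that left out 1 array, with adjusted p up to 0.198. These were the fits without P0 replicate 2 or 3, P1 replicate 2 or 3, P2 replicate 2, P3 replicate 1 or 2, or P4 replicate 2 or 3. With replicates 2 and 3 alone, Cldn6 and Cldn7 passed and the steps of Epcam (adjusted p = 0.0753) and Dsp (adjusted p = 0.122) did not.

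The samples of one replicate number deviated from their day means together, and with this number as a block more steps passed. Whether samples of different numbers did so too was not checked. Epcam then rose between P1 and P2 (log2 difference 0.42, adjusted p = 0.0475), where 0.766% of all genes rose and 0.194% fell. All P1 values of Epcam lay below those of P0, with means of 6.84 at P0, 6.69 at P1 and 7.11 at P2, so this step started from a dip. This step passed under no other alternative run, and with the first replicates against the others as a block its adjusted p was 0.101. Cldn5 rose between P2 and P3 (log2 difference 1.03, adjusted p = 0.0167), where 0.799% rose and 0.412% fell. Between P3 and P4 the count was 11, against 2.31% of all genes, with 0 lower, against 1.25%, and the added genes were Pkp2, Patj, F11r, Cgnl1, Krt18, Cldn1 and Marveld2. F11r had its lowest mean at P3, so its step started from a dip. Its mean was 9.09 ± 0.28 (SD, n = 3) at P2, 8.71 ± 0.23 at P3 and 9.09 ± 0.28 at P4.

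The slope over P0 to P3 addressed change among the samples labelled cap mesenchyme, with no P4 sample in the contrast. Epcam rose by 0.18 per day on the log2 scale (SE 0.04, adjusted p = 0.0147) and was 1 of 36, against 1.65% of all genes. Cldn1 fell by 0.39 per day (SE 0.09, adjusted p = 0.0327) and was 1 of 36, against 1.48%. The Epcam slope did not pass without P0 replicate 3 (adjusted p = 0.055) or P3 replicate 2 (adjusted p = 0.0597). The Cldn1 slope did not pass in 7 of the 15 fits that left out 1 array. These were the fits without P0 replicate 1 or 2, P1 replicate 2 or 3, P2 replicate 2 or 3, or P3 replicate 3, with adjusted p up to 0.115. With replicates 2 and 3 alone neither slope passed (adjusted p = 0.0926 for Epcam and 0.0709 for Cldn1), and the 1 member called was Cldn5 (adjusted p = 0.00133).

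With the replicate block, 4 slopes were upward, against 4.01% of all genes, and 2 downward, against 4.48%. Those added were Cldn5 (0.42 per day, adjusted p = 6.52e-04), Marveld2 (0.20, adjusted p = 0.0311), Dsp (0.18, adjusted p = 0.0328) and, downward, Cldn9 (-0.18, adjusted p = 0.0168). Cldn6 and Cldn7 had slopes of -0.06 and 0.06 per day that did not pass. A line through P0 to P3 extended to P4 was then set against the P4 values, a contrast chosen with the values known. Cldn6 exceeded it by 1.37 (SE 0.17, adjusted p = 0.00126) and Cldn7 by 1.07 (SE 0.19, adjusted p = 0.0124). These were the 2 members called higher, against 0.749% of all genes, and 0 were lower, against 0.294%.

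Onset was taken as the first day on which a member differed from P0 and went on differing in the same direction. At P1, P2 and P3, 0 of 36 members passed against P0, and 0, 2 and 7 had an unadjusted p under 0.05. At P2, 0.00841% of all genes were higher than at P0 and 0.0252% lower. At P3, 1.09% of all genes were higher and 1.09% lower. At P4, 9 members were higher, against 3.18% of all genes, and Cldn9 was lower, against 2.45%. By this reading all 10 had their onset at P4, with Cldn5 the furthest from P0 (3.97-fold). Of the 15 fits that left out 1 array, Krt8 did not pass at P4 against P0 in 8, Patj in 5 and Marveld2 in 2. The other members called passed in all of them.

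With the replicate block some members were first called at P3 and others at P4. At P3, 4 members were higher than at P0, against 3.0% of all genes, and 2 were lower, against 3.48%. Cldn5 was 2.52-fold higher (adjusted p = 7.81e-04), Marveld2 1.58-fold (adjusted p = 0.0291), Dsp 1.53-fold (adjusted p = 0.0291) and Epcam 1.38-fold (adjusted p = 0.00668). Cldn9 was 1.43-fold lower (adjusted p = 0.0305) and Cldn1 2.27-fold lower (adjusted p = 0.00359). All of these but Cldn1 also differed from P0 at P4, where 11 were higher, against 5.69% of all genes, and 1 lower, against 5.44%. The members first called at P4 were Cldn6, Cldn7, Cgnl1, Patj, Krt8, Pard6b and Llgl2. As a description without a test, the midpoint day is the first from which the day mean stays beyond the midpoint between the P0 and P4 means. It was P3 for Cldn5 and Cldn9. For Marveld2, Dsp and Epcam it was P4, as for the members first called at P4. Whether the onset day of one member differed from that of another was not tested.

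**Figure D5:**
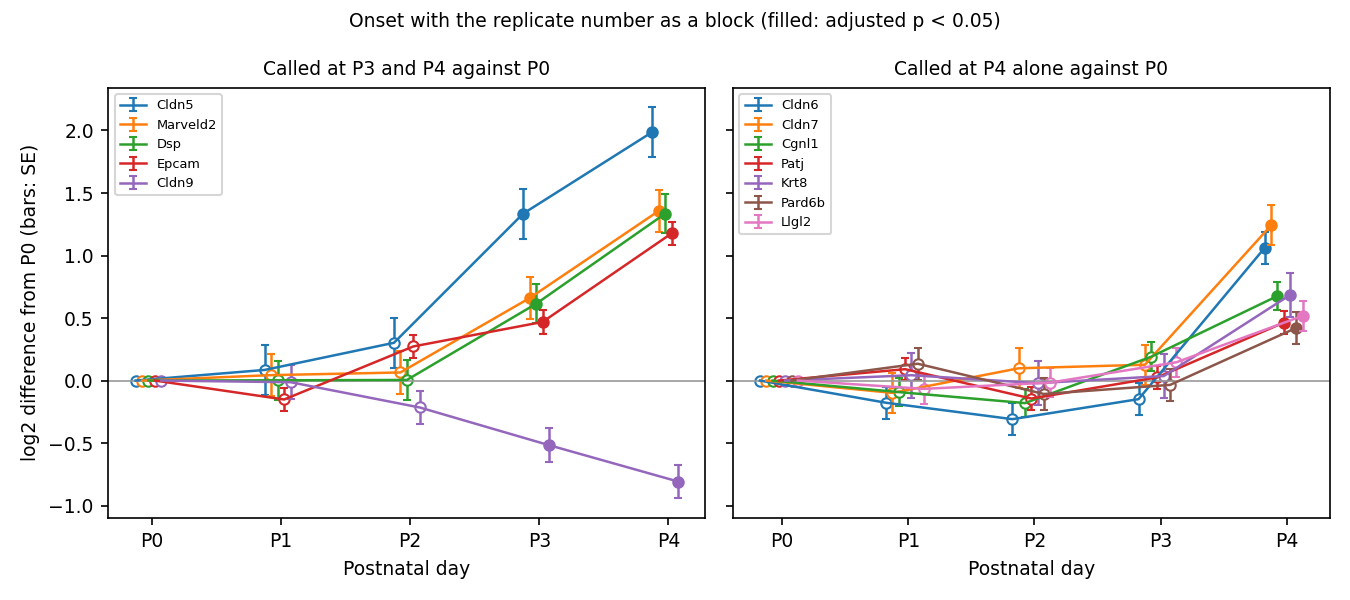
Lines give the log2 difference from P0 by postnatal day, with the SE as bars, from the fit with the replicate number as a block, and filled points are days called against P0. The genes on the left are called at P3 and P4, with Cldn9 the only one below 0, and those on the right at P4 alone.

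Other junction genes were counted from a separate list of 56, of which 52 were measured and 42 tested. At P4, 3 of the 42 rose, against 3.41% of all genes, and 0 fell, against 2.32%, and the median log2 difference was 0.07, against 0.00 for all genes. Cdh1 encodes E-cadherin, the adhesion protein of the adherens junction, and had day means of 7.15, 7.06, 7.07, 7.35 and 8.96 from P0 to P4. It differed by 1.80 (SE 0.14) at P4. Igsf5, which encodes a junction immunoglobulin protein, differed by 0.49 (SE 0.09), and Msn, which encodes moesin, by 0.57 (SE 0.14). In the slope over P0 to P3, Igsf5 and Lin7a rose, against 1.65% of all genes, and Amot fell, against 1.48%. With the replicate block 3 slopes were upward and 3 downward, against 4.01% and 4.48%. The slope of Cdh1 passed neither without the block (0.06 per day, adjusted p = 0.811) nor with it.

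Factors known to act on epithelial junction genes were counted likewise, with 22 listed, 20 measured and 12 tested. At P4, 1 of the 12 rose and 2 fell, against the same 3.41% and 2.32% of all genes. Tfcp2l1 rose (log2 difference 0.87, SE 0.13), and Zeb1 (-1.05, SE 0.20) and Snai2 (-0.57, SE 0.12), repressors of Cdh1, fell. The day means of Zeb1 were 9.81, 9.62, 9.36, 8.63 and 8.31. In the slope over P0 to P3, Zeb1 fell and Grhl1 rose, against 1.48% and 1.65% of all genes. Grhl2, a grainyhead factor of epithelia, was below the filter, with day means of 5.85, 5.80, 5.81, 5.89 and 7.08, and without the filter it differed by 1.25 (adjusted p = 6.23e-05). No test linked these factors to the members.

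Some markers of other cell types differed at P4 from the cap mesenchyme pools, and others did not pass. Of 11 ureteric bud and collecting duct markers, 6 were tested and 2 rose, Gata3 (log2 difference 1.88, SE 0.16) and Tfcp2l1. The mean over the 11 ran from 6.48 to 6.76 in the P0 pools and from 6.94 to 7.13 in the P4 pools. The P2 pools reached 6.98 and overlapped those of P4, and the P1 and P3 pools stayed at or below 6.77. Ret and Wnt11, which define the tips of the bud, stayed below the filter, with means of 6.34 and 6.53 at P0 and 6.47 and 6.59 at P4. Of the 5 proximal tubule markers 4 were tested and 2 rose, Lrp2 (log2 difference 0.65) and Slc22a6. Of the 5 loop and distal tubule markers 2 were tested and 0 passed. Of 8 stroma markers 7 were tested and 2 fell, and of the macrophage and erythroid markers, with 1 tested in each list, 0 passed. Of all genes tested, 3.41% were higher and 2.32% lower in this comparison. The part of these cells in the rise of Cldn6, Cldn7, Epcam and the other members was not tested.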

How the data were processed

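RNA of 15 sorted pools was amplified in 1 round and hybridised to whole-transcript mouse arrays of 1 colour. The authors deposited 1 table of log2 values for 35557 probe sets, with Affymetrix Expression Console as the tool in the submitters' processing notes. No source used here gives its version, the summarization, the background correction or the centring, and the log2 scale is read from the range of the values (2.38 to 13.76). If background remains in dim genes, their folds are understated. No scanner files were used. The platform table paired 21789 probe sets with 1 gene symbol and 1621 with several, and did not list 12147. Only the first were named. The probe set with the highest mean over the 15 arrays stood for a gene. Members were matched through older symbols where needed (Pals1 as Mpp5).

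Differences were tested with limma 3.58.1 in R 4.3.3, with a mean for each day over all 15 arrays, eBayes, two-sided tests and Benjamini-Hochberg adjustment over the 11885 genes above 6.86 in at least 3 arrays, at a threshold of 0.05. The scripts were tested on simulated data. Replicate numbers were checked for pairing by the correlation of deviations from the day means. Among P0 to P3, 18 of 18 pairs exceeded 0.1 (lowest 0.138), and over all days 29 of 30 did (lowest 0.0782). On this basis pairing by number was accepted for the slope, the steps and the comparisons with P0. It was not accepted for P4 against the cap mesenchyme, although P4 against P3 and P4 against P0 use the same P4 arrays. Samples with different numbers were not compared, and the first replicates stood apart on every day. The check therefore cannot tell pairing by number from a difference between the first replicates and the others. Alternatives were the replicate block, the array set (first replicates or not) as a block, replicates 2 and 3 alone, each array left out, quantile normalization, other filters, the mean of all probe sets and a trended robust prior. Named with values were the members called in P4 against cap mesenchyme, the slope or a step, the claudins past the filter and, beside them, markers. The members, lists and tests were chosen with earlier results of these data known. The number of arrays limits the precision.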

Additional observations from a re-analysis of the deposited data

How the results depend on the processing

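No slope and no difference between P4 and the cap mesenchyme called in the main fit changed sign under the alternatives run. Uncalled ones near 0 did, in 6 differences at P4 and 14 slopes, as given at the end. The 14 include the uncalled slopes of Patj and Krt8, which rose at P4. At P4 against the cap mesenchyme the count of members that rose stayed between 10 and 15 under the other settings and between 8 and 11 with 1 array left out, and 1 fell each time. Pairing by replicate number was accepted in the other contrasts, on a check that compared only samples of the same number. With the replicate block, P4 against the cap mesenchyme had 14 members higher and 1 lower, with Llgl2 (adjusted p = 0.00194), Krt18 (0.00471), Pkp2 (0.0142) and Ezr (0.0164) added, the F test over the 5 days 15 instead of 9, and P4 above the extended line 9 instead of 2. Among all genes tested, those with an unadjusted p under 0.05 in limma also increased with this block. At P4 against the cap mesenchyme they went from 1733 to 2805, in the F test from 1510 to 2806 and for the extended line from 844 to 1690. The share of all genes called was not counted for these contrasts with a block, so these counts describe the members alone. With the replicate block the slope had 4 upward and 2 downward, P2 against P1 1 higher, P3 against P2 1 higher, P4 against P3 11 higher, and P3 against P0 4 higher and 2 lower. With the array set as a block these were 4 and 2 for the slope, 1 for P3 against P2, 9 for P4 against P3, 4 and 2 for P3 against P0, 14 for the F test and 8 for the extended line, P2 against P1 had 0, and Cldn4 (adjusted p = 0.0492) joined those 4 among 15 members higher at P4 than in the cap mesenchyme. With either block 7 genes of the other junction list rose and 1 fell at P4, instead of 3 and 0, and 3 of the factors rose and 2 fell, instead of 1 and 2.

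Replicates 2 and 3 alone gave 0 downward slopes and 1 upward, which was Cldn5 in place of Epcam, 1 member higher at P3 than at P2, 2 higher at P4 than at P3, without Epcam and Dsp, and 1 higher at P3 than at P0. Quantile normalization gave 3 upward slopes, 3 members higher at P3 than at P0 and 4 above the extended line. A filter at the 60th percentile gave 2 upward slopes, and the trended robust prior gave 1 member higher and 1 lower at P3 than at P0. With 1 array left out, the counts ranged from 0 to 3 for upward and 0 to 2 for downward slopes, 3 to 4 for P4 against P3, 6 to 9 for the F test, 0 to 2 higher and 0 to 1 lower at P3 than at P0, 6 to 9 higher at P4 than at P0, and 1 to 3 for the extended line. The share of all genes called was not counted under these settings, nor with the array set as a block, so these counts describe the members alone. The cause of these shifts was not tested. Signal near background limits the 14 members below the filter.

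The differences at P4 that changed sign ran, with 1 array left out, for Cldn11 from -0.0382 to 0.0705, Cldn15 from -0.0372 to 0.0922, F11r from -0.0192 to 0.253, Pard3 from -0.0507 to 0.0863, Prkcz from -0.0629 to 0.366 and Scrib from -0.0106 to 0.274. With replicates 2 and 3 alone they were Cldn11 -0.062, Cldn15 -0.00678 and Pard3 -0.0402, and with quantile normalization Cldn15 -0.0194. The slopes that changed sign ran, with 1 array left out, for Cldn4 from -0.073 to 0.018, Cldn11 from -0.0441 to 0.00919, Cldn12 from -0.11 to 0.107, Cldn15 from -0.0383 to 0.0121, Cldn19 from -0.0156 to 0.0499, Prkci from -1.79e-04 to 0.0477, Prkcz from -0.031 to 0.0333, Crb2 from -0.0106 to 0.0577, Patj from -0.038 to 5.47e-05, Dlg1 from -0.0323 to 0.00797, Pkp3 from -0.00863 to 0.0458, Krt8 from -0.0377 to 0.0518, Krt18 from -0.0821 to 0.0196 and Ezr from -0.101 to 0.00608. With replicates 2 and 3 alone they were Cldn15 0.00335, Cldn19 -0.0056, Dlg1 0.0127 and Krt18 0.0183, with quantile normalization Cldn11 0.00399 and with the mean of all probe sets Prkcz -0.00812. After a change of sign the lowest adjusted p was 0.884 at P4 and 0.860 for the slopes.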
